A study of Mus musculus with 6 samples.

Results

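Genes of transforming growth factor beta (TGF-beta) signalling were examined in bone endothelial cells (BECs) of 12-weeks mice. The 10 genes are the ligands Tgfb1, Tgfb2 and Tgfb3, the latency proteins Ltbp1 and Ltbp3, the receptors Tgfbr1, Tgfbr2 and Tgfbr3, and the signal transducers Smad2 and Smad3. The genes were chosen by name as members of the pathway, with the male against female fold changes of these same libraries known, among them that of Tgfb3. All 10 were found by Ensembl identifier among the 37991 identifiers of the count table. Differences between the sexes in these genes are therefore given as a description. Where the calls of a fit over all genes include them, this is no independent test of them.

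BECs were purified by endomucin from freshly isolated tibia of c57/Bl6 mice, 3 female and 3 male replicates of 12 weeks with no treatment named, to compare the endothelium of the sexes. The strain and bone are given as the labels have them, whereas the methods of the study name C57BL/6J mice and both tibiae and femurs. The labels do not say whether a replicate is 1 mouse or a pool, so p-values measure the spread between these libraries only. Libraries held between 47678806 and 58325745 counts, and 3 counts, the smallest level taken as shown by a library, came to 0.0477 to 0.0639 CPM (counts scaled to 1000000 per library). This floor covers counting error only. Values of single genes are CPM after TMM normalisation, a scaling of edgeR that sets the libraries to a common size. The libraries held RNA of other marrow cells. The 10 endothelial markers (Cdh5, Pecam1, Emcn and others) were all detected and summed to 287 to 376 CPM in females and 169 to 241 in males, whereas 10 neutrophil markers summed to 18465 to 22582 in females and 31383 to 43086 in males. Emcn, the gene of the protein used for purification, lay 5.35 to 10.5 CPM in females and 3.09 to 6.73 in males. In such bulk RNA, fewer cells of a type and less RNA per cell cannot be told apart.

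TGF-beta ligands are made as precursors that are cut by furin, and the mature dimer stays bound to its own propeptide in a latent complex. Latent TGF-beta binding proteins tie this complex to the matrix, and integrins or proteases release the ligand. The free ligand binds the type II receptor, which phosphorylates the type I receptor, which in turn phosphorylates Smad2 and Smad3. These enter the nucleus with Smad4. Endothelial cells can pass the signal through a further type I receptor, ALK1, with the co-receptor endoglin. In bone, TGF-beta stored in the matrix is known for coupling resorption to formation.

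To compare the genes with each other, CPM were divided by the length of their exons in the GENCODE M39 annotation. On this scale Tgfb1 was the highest of the 10, with 47.4 ± 5.27 CPM per kilobase (SD, n = 6 libraries). Tgfbr2 followed with 24.5 ± 2.18 and Tgfbr1 with 8.48 ± 0.545. Smad3 had 4.80 ± 0.414 and Smad2 3.15 ± 0.198. Tgfbr3 had 2.67 ± 1.27, Tgfb3 2.64 ± 1.78, Ltbp1 1.95 ± 0.458 and Ltbp3 1.37 ± 0.467, and Tgfb2 was lowest with 0.131 ± 0.0490. The order was not the same in the sexes below Smad3. By its mean, Tgfb3 took rank 5 in females, with 4.20 CPM per kilobase above Tgfbr3 (3.43) and Smad2 (3.09), and rank 9 in males, with 1.07 below Ltbp3 (1.16).

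The steps between neighbours in the pooled order were compared over the 6 libraries. The same libraries set this order, so the p-values describe how evenly each step ran through them and are no independent test of the order. Tgfb1 over Tgfbr2, Tgfbr2 over Tgfbr1, Tgfbr1 over Smad3, Smad3 over Smad2 and Ltbp3 over Tgfb2 held in 6 of 6 libraries (exact sign-flip permutation test, two-sided, p = 0.03125, the smallest p that 6 libraries allow, and 0.05625 after Benjamini-Hochberg adjustment over 9 pairs). Smad2 and Tgfbr3, and Tgfbr3 and Tgfb3, did not keep one order over the libraries (exact p = 0.344 and 0.594). For Tgfb3 and Ltbp1 the pooled comparison (exact p = 0.750) joins opposite orders. Per kilobase, Tgfb3 had 3.55, 5.01 and 4.05 CPM in female replicates 1, 2 and 3 against 2.59, 1.28 and 1.66 for Ltbp1. In male replicates it had 0.972, 0.923 and 1.32 against 2.17, 2.17 and 1.82. Tgfb3 thus lay above Ltbp1 in each female and below it in each male library. Ltbp1 lay above Ltbp3 in 5 of 6 libraries (exact p = 0.0625). With the length of the longest transcript in place of all exons, 7 of the 10 genes kept their rank and Ltbp1 moved to rank 6, above Tgfbr3 and Tgfb3.

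**Figure D1:**
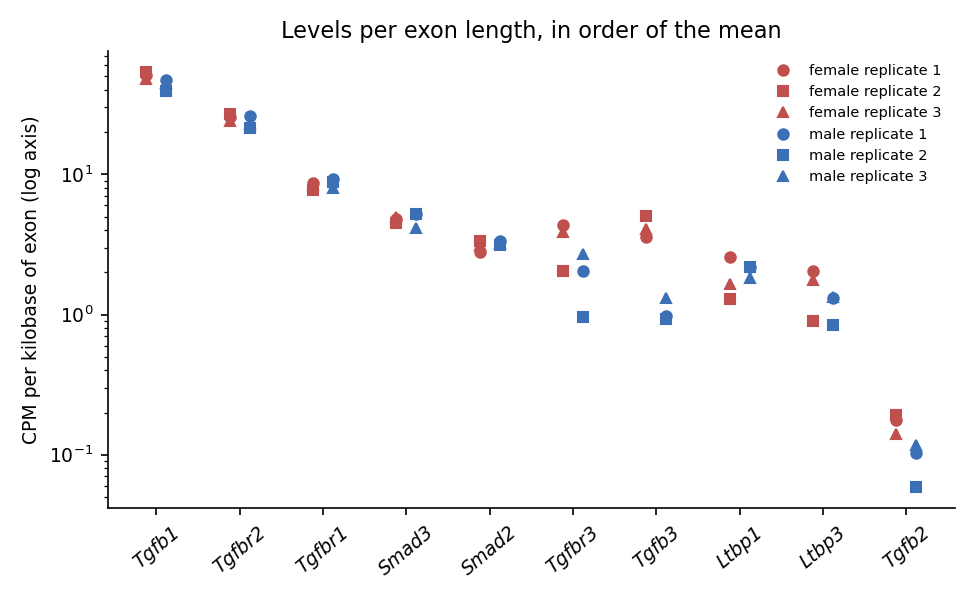
CPM per kilobase of exon on a log axis, for the 10 genes in order of their mean level, with 1 point for each library (females left and red, males right and blue, symbols for replicates). Tgfb1 lies between 39.1 and 54.1 in the 6 libraries and Tgfb2 between 0.0584 and 0.190, and only for Tgfb1, Tgfb2 and Tgfb3 do all males lie below all females.

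Of the 10 genes, the sexes lay farthest apart in Tgfb3. It encodes a TGF-beta ligand required for closure of the palate, and lies on chromosome 12 of GRCm39 from 86102756 to 86126301. Females had 18.5, 26.1 and 21.1 CPM in replicates 1, 2 and 3, and males 5.07, 4.81 and 6.87. The lowest female library was thus above the highest male library. The female mean of 21.9 ± 3.88 CPM (SD, n = 3) was 3.92-fold that of males, 5.58 ± 1.12 CPM (SD, n = 3). The counts behind these values were 1163, 1381 and 990 in females and 267, 237 and 326 in males. The log2 fold change of males over females was -1.97 (standard error 0.201) in edgeR's quasi-likelihood fit, and lay between -2.15 and -1.83 with each library left out in turn. Exons of Tgfb3 share 179 bases with Ttll5 on the opposite strand, and whether reads were counted by strand was not stated. Ttll5 itself had a female mean of 7.21 ± 1.52 CPM (SD, n = 3) and a male mean of 8.58 ± 0.360 CPM (SD, n = 3), with overlapping libraries.

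Tgfb1 encodes the main TGF-beta of bone matrix and platelets and lies on chromosome 7 from 25386390 to 25404506. It had 261, 275 and 245 CPM in female replicates 1, 2 and 3 and 239, 199 and 226 in male replicates. All males lay below all females, but by a small distance. The log2 fold change was -0.23 (standard error 0.124). Tgfb2, on chromosome 1 from 186354985 to 186438294, had 1.11, 1.19 and 0.873 CPM in females and 0.645, 0.365 and 0.738 in males. The libraries again did not overlap, but these values rest on 41 to 70 counts in females and 18 to 35 in males. The log2 fold change of Tgfb2 was -0.86 with a standard error of 0.426, and -0.61 without male replicate 2.

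Among the ligands, males thus had a smaller share of Tgfb3. Per kilobase of exon, Tgfb3 made 6.44%, 8.46% and 7.73% of the summed level of the 3 ligands in female replicates 1, 2 and 3, and 2.02%, 2.30% and 2.87% in male replicates. Tgfb1 made 91.2% to 93.2% in females and 96.9% to 97.8% in males. Tgfb2 stayed at or below 0.323% in each library. With the longest transcript as the length, the share of Tgfb3 lay 4.17% to 5.53% in females and 1.29% to 1.84% in males.

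**Figure D2:**
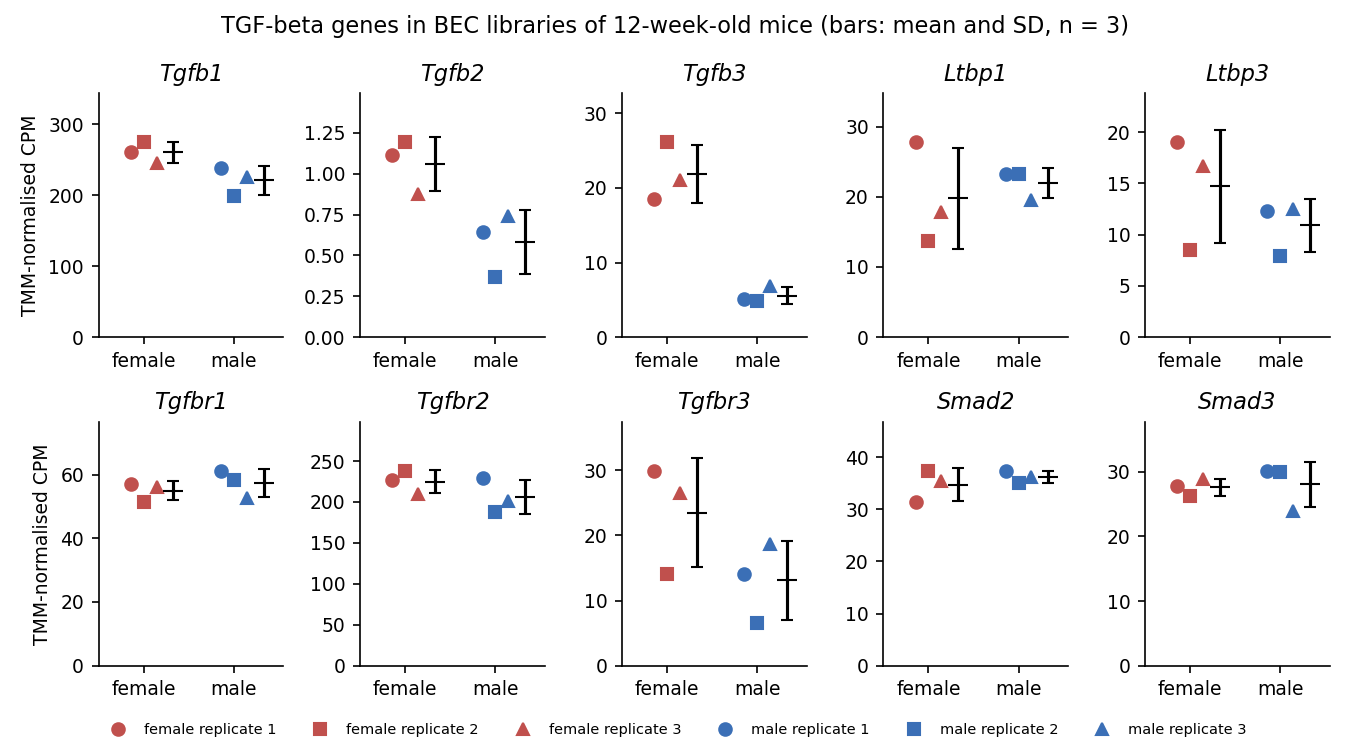
TMM-normalised CPM of the 10 genes in each library (symbols for replicates, red for females and blue for males), with the mean and SD of each sex (n = 3) beside the points and a separate axis from 0 for each gene. For Tgfb3 the female libraries lie between 18.5 and 26.1 CPM and the male libraries between 4.81 and 6.87, while Tgfbr3 and Ltbp3 are lowest in replicate 2 of either sex.

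The latency proteins differed more between libraries of a sex than between the sexes. Ltbp1, on chromosome 17 from 75312519 to 75699507, had 27.8, 13.8 and 17.8 CPM in female replicates 1, 2 and 3 and 23.3, 23.3 and 19.5 in male replicates. The male values fell within the female range. The log2 fold change was 0.15 (standard error 0.228), and lay between -0.053 without female replicate 2 and 0.49 without female replicate 1. Ltbp3, on chromosome 19 from 5790932 to 5808669, had 19.0, 8.48 and 16.7 CPM in females and 12.3, 7.96 and 12.5 in males. Replicate 2 was the lowest library of each sex. The log2 fold change was -0.43 (standard error 0.290), and lay between -0.71 without female replicate 2 and -0.20 without female replicate 1.

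The signalling receptors were close in the sexes. Tgfbr1, the type I receptor, on chromosome 4 from 47353134 to 47414931, had 57.2, 51.5 and 56.0 CPM in females and 61.2, 58.2 and 52.6 in males. Males over females, the log2 fold change was 0.064 with a standard error of 0.112, and 0.013 to 0.12 with each library left out. Tgfbr2, the type II receptor, on chromosome 9 from 115913361 to 116004800, had 227, 238 and 210 CPM in females and 229, 188 and 201 in males. Here the log2 fold change was -0.13 with a standard error of 0.125, and lay between -0.21 without male replicate 1 and -0.064 without male replicate 2. The libraries of the sexes overlapped for both.

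Tgfbr3 encodes betaglycan, the co-receptor that presents ligand to the type II receptor, and lies on chromosome 5 from 107249402 to 107437623. It had 29.9, 14.0 and 26.5 CPM in female replicates 1, 2 and 3 and 14.1, 6.62 and 18.6 in male replicates. The sexes overlapped, since female replicate 2 lay below male replicates 1 and 3. The log2 fold change was -0.84 (standard error 0.385), and moved to -0.52 without male replicate 2 and to -1.19 without male replicate 3. Of the 10 genes it had the largest spread within a sex, an SD averaging 0.660 on the log2(CPM + 0.5) scale, against 0.0958 for Smad2.

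Smad2 and Smad3, which carry the signal to the nucleus, had the smallest log2 fold changes of these genes in size, with Tgfbr1. Smad2, on chromosome 18 from 76374327 to 76445180, had 31.4, 37.4 and 35.5 CPM in females and 37.4, 35.1 and 36.2 in males. Smad3, on chromosome 9 from 63554049 to 63665476, had 27.7, 26.2 and 28.8 CPM in females and 30.1, 30.0 and 23.9 in males. The log2 fold changes were 0.061 (standard error 0.116) for Smad2 and 0.023 (standard error 0.132) for Smad3, and with each library left out in turn they lay between 0.0028 and 0.12 for Smad2 and between -0.035 and 0.12 for Smad3.

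**Figure D3:**
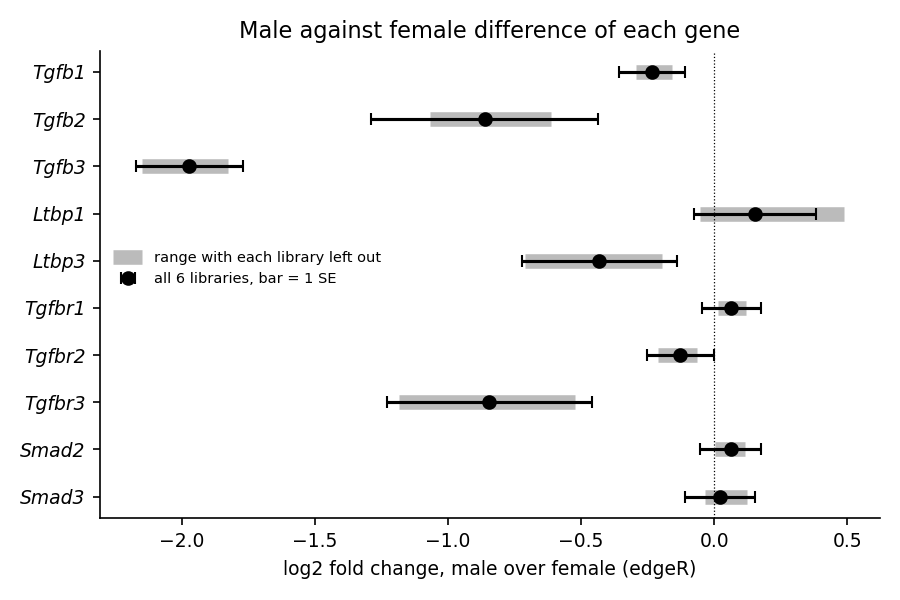
Log2 fold change of males over females for each of the 10 genes from edgeR's fit (points, with 1 standard error as bars) and its range with each library left out in turn (grey). Tgfb3 lies at -1.97 with a range of -2.15 to -1.83, and the ranges of Ltbp1 and Smad3 cross 0.

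Read as a description, 1 of the 10 genes, Tgfb3, was among the genes called by edgeR (adjusted p below 0.05), where 0.0411% of the 19480 genes tested were called, 0.0154% lower and 0.0257% higher in males. All 10 passed the filter on low counts. Tgfb3 was not among the calls without female replicate 2, where 5 genes were called. For 3 of the 10 genes all males lay below all females and for 0 all males lay above, against 7.29% and 7.25% of all genes tested (14.5% in either direction). The median log2 fold change was -0.18 over the 10 genes and -0.0012 over all genes tested.

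Marker genes of several cell types moved with these values. Neutrophil markers lay above each female library in each male library for 8 of 10 genes. Elane and Mpo overlapped, with log2 fold changes of 0.17 and -0.61. The 8 markers of macrophages and monocytes summed to 3590 to 3984 CPM in females and 2570 to 3325 in males, with 6 lower in all males and 1, Ly6c2, higher. The 8 reticular stromal markers (Cxcl12, Lepr and others) summed to 2591, 1273 and 2735 CPM in female replicates 1, 2 and 3 and to 1525, 1045 and 2128 in male replicates, with 1 of 8 lower in all males. The 8 megakaryocyte and platelet markers summed to 199, 51.4 and 117 CPM in females and to 81.5, 38.0 and 102 in males, with none apart. Replicate 2 was the lowest library of each sex in these stromal and platelet sums and in the endothelial, osteoblast lineage and smooth muscle and pericyte sums, as in Tgfbr3 and Ltbp3. Their part in the results was not tested.

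For the other lists the range was 12121 to 17409 CPM in females and 18445 to 27102 in males for erythroid markers (4 of 8 higher in all males). It was between 2784 and 3198 and between 2802 and 3228 for B cell markers (1 of 6 higher in all males). T and NK cell markers had between 75.5 and 88.5 and between 65.3 and 79.3 (1 of 6 lower in all males). Osteoblast lineage markers had between 160 and 250 and between 145 and 199, and smooth muscle and pericyte markers between 29.9 and 66.6 and between 23.3 and 41.2, with none of the 7 and 6 apart. No marker of any list was under 3 counts in each library. Cnn1, a smooth muscle marker, was at 0 in female replicate 2.

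The level of Tgfb3 was also set against these sums, a comparison chosen after seeing the data. Relative to the summed endothelial markers, Tgfb3 had 5.01%, 9.12% and 5.61% in female replicates 1, 2 and 3 and 2.26%, 2.85% and 2.86% in male replicates. All males lay below all females, with a log2 difference of -1.27. Against the reticular stromal sum this difference was -1.50, and against that of macrophages and monocytes -1.59, again with no overlap. The endothelial sum rests mostly on Stab2 and Pecam1, with means of 93.3 and 85.4 CPM over the 6 libraries. Their log2 fold changes were -0.69 and -0.23, whereas those of Kdr and Flt4, with 18.1 and 14.5 CPM, were -1.41 and -1.44. Single markers were not used as a scale, so the values hold for these sums only. Tgfbr3 relative to the reticular stromal sum had 1.16%, 1.10% and 0.970% in females and 0.922%, 0.633% and 0.875% in males. Here the sexes did not overlap, with a log2 difference of -0.42, but they overlapped for Tgfbr3 relative to the endothelial sum (-0.19) and to that of macrophages and monocytes (-0.51). The stromal sum rests mostly on Cxcl12, with a mean of 1643 CPM over the 6 libraries against 83.8 for Lepr, so this scale is close to Cxcl12 alone. Ltbp3 relative to the reticular stromal sum had 0.609% to 0.734% in females and 0.589% to 0.804% in males, which overlap. Relative to the endothelial sum, Tgfbr1, Tgfbr2, Ltbp1, Smad2 and Smad3 lay above the females in each male library, with log2 differences of 0.58 to 0.92. Against the stromal sum all of these genes overlapped (0.34 to 0.68). Against the macrophage sum Tgfbr2, Ltbp1 and Smad3 overlapped (0.26, 0.60 and 0.40), while Tgfbr1 and Smad2 did not (0.45 for each). On CPM the libraries of all these genes overlapped, and Tgfbr2 had the opposite sign. The sign also turned for Tgfb1, which had log2 differences of 0.47, 0.23 and 0.15 against the endothelial, stromal and macrophage sums with overlapping libraries, and for Ltbp3, with 0.33, 0.093 and 0.0088. Tgfb2 stayed below 0, at -0.20, -0.44 and -0.53, but the libraries overlapped against the endothelial and stromal sums.

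**Figure D4:**
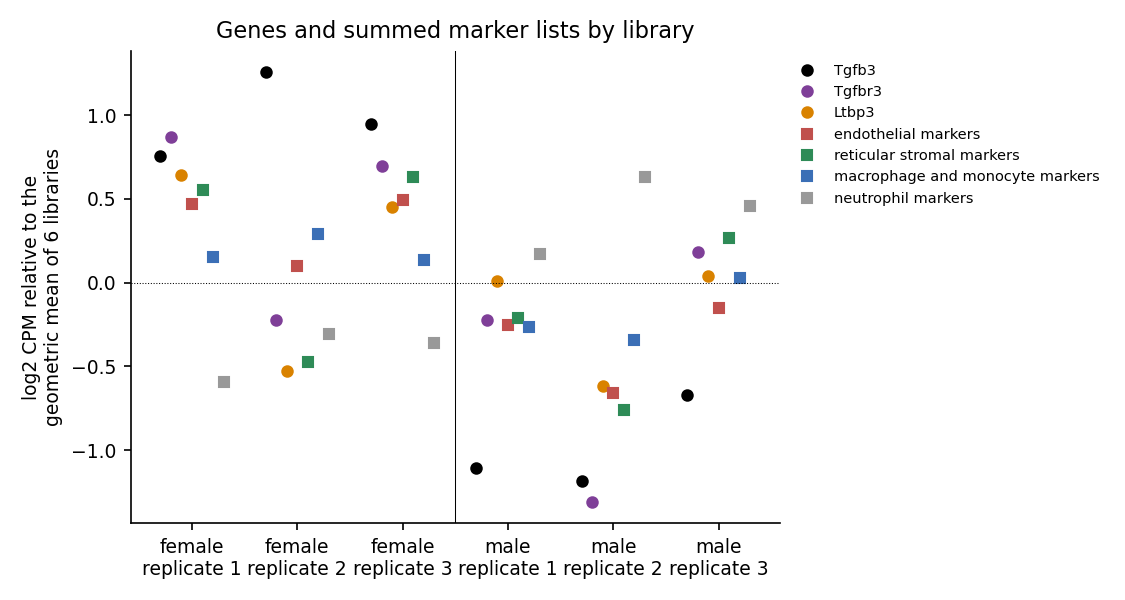
Log2 CPM of Tgfb3, Tgfbr3 and Ltbp3 (circles) and of 4 summed marker lists (squares) in each library, relative to the geometric mean of the 6 libraries. Tgfbr3 and Ltbp3 lie low in replicate 2 of either sex as do the reticular stromal sum (1273 CPM in the female and 1045 in the male library) and the endothelial sum (287 and 169 CPM), whereas Tgfb3 has its highest value, 26.1 CPM, in female replicate 2.

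The genes most like each ligand over the 6 libraries were sought among protein-coding genes of at least 5 CPM, with Pearson's r of log2(CPM + 0.5) as the measure. These r share their libraries and the 2 sexes, and are a description over 6 points. For Tgfb3 the first 5 of 10478 genes were Sgcb (0.995), Pip4k2a (0.995), Naaa (0.994), Il3ra (0.988) and the X-linked Eif2s3x (0.979). Their differences between the sexes were smaller than that of Tgfb3: Sgcb had a mean of 15.8 CPM in females and 12.2 in males, and Eif2s3x 178 and 111. For Tgfb1 they were Acsf2, Cd180, Abhd8, Ephx1 and Ppp1r13b, with r between 0.997 and 1.00. For Tgfb2 they were P2ry6, Tbxas1, Cnn3, Taf6l and Psap, with r between 0.988 and 0.994.

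Other genes of the pathway were compared between the sexes as 5 lists. Of 61 genes, all were in the count table and 58 passed the filter on low counts. The other 3, Itgb8, Inha and Acvr1c, had at most 10, 11 and 40 counts in a library. None of the 58 was called by edgeR after adjustment over all genes tested. At an unadjusted p under 0.05, which 9.79% of all genes reached, 9 were lower in males and 5 higher, against 4.76% and 5.03% of all genes. DESeq2's Wald test, the tool of the study, called 3 after adjustment, Eng and Tagln lower in males and Inhba higher, where it called 2.08% of the 17252 genes to which it gave an adjusted p, 0.771% lower and 1.31% higher. All males lay below all females for 6 of the 58 and above for 7, against 7.29% and 7.25% of all genes.

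In the list of latency and activation, 10 of 12 tested genes had a log2 fold change below 0, with a median of -0.40 against -0.0012 over all genes, and 0 were called. Summed markers were also lower in males, with log2 ratios of the male to the female mean of -0.49 for reticular stromal cells, -0.70 for endothelial cells and -0.38 for macrophages and monocytes, and their part in this median was not tested. At an unadjusted p under 0.05, 5 were lower in males and 1 higher, Furin, the ligand-cutting protease, named after its values were seen. Ltbp2, a latency protein relative found on elastic fibres, had 54.9, 22.9 and 61.4 CPM in females and 24.6, 14.0 and 30.5 in males (log2 fold change -1.01, standard error 0.381). For Ltbp2 the adjusted p by edgeR was 0.430, and 0.00156 with the replicate number as a block. Lrrc32, which encodes GARP, the surface anchor of latent TGF-beta, had 6.85, 3.10 and 5.03 CPM in females and 3.02, 1.01 and 3.16 in males. Fbn1, the microfibril protein fibrillin-1, had 48.1, 26.3 and 45.0 in females and 29.0, 15.0 and 27.0 in males. For these 3 genes female replicate 2 lay within the male range, and replicate 2 was the lowest library of each sex, as for Tgfbr3.

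The genes of this list with the most counts were integrin subunits and Nrros, a latency anchor of myeloid cells. Itgb1 had 160, 137 and 161 CPM in females and 115, 99.2 and 124 in males, without overlap (log2 fold change -0.43, standard error 0.128, adjusted p = 0.298 by edgeR). Itgb5 had 135, 137 and 133 CPM in females and 104, 90.5 and 118 in males, again without overlap (log2 fold change -0.38, adjusted p = 0.351 by edgeR). Nrros had 88.2 to 116 CPM in females and 92.3 to 107 in males.

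Of 5 co-receptors and receptor partners, 4 had a log2 fold change below 0, and 0 were called by edgeR, with 1, Eng, lower at an unadjusted p under 0.05. Eng, which encodes endoglin, had 53.3, 31.0 and 53.7 CPM in females and 20.7, 11.7 and 26.1 in males, without overlap, while Acvrl1, which encodes ALK1, lay 47.2 to 50.6 in females and 45.6 to 49.3 in males. Eng thus differed by a log2 fold change of -1.24 with a standard error of 0.303 (adjusted p = 0.230 by edgeR and 0.000949 by DESeq2), and Acvrl1 by -0.066 with a standard error of 0.105. Markers of endothelial cells, which express Eng, moved with it: the 10 had log2 fold changes of -1.44 (Flt4) to -0.23 (Pecam1), Kdr with -1.41, Tek with -1.37 and Cdh5 with -1.17, and 3 of 10 were lower in all males. Their part in the difference of Eng was not tested. Bambi, a receptor decoy, had 5.95, 3.12 and 5.47 CPM in females and 2.51, 1.60 and 5.44 in males. The list's median log2 fold change was -0.25.

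The Smad partners and inhibitors lay close in the sexes. The 14 genes of this list had log2 fold changes with a median of 0.025, 6 below 0 and 8 above, and 0 were called by edgeR or DESeq2 or reached an unadjusted p under 0.05. Smad4, the common partner, had 48.8, 51.0 and 50.6 CPM in females and 57.2, 53.0 and 53.1 in males (log2 fold change 0.12, standard error 0.104). Ppm1a, a phosphatase of Smads, had 67.4 to 79.6 in females and 78.7 to 85.3 in males. Ski, a repressor of Smad transcription, had 60.5 to 65.0 in females and 50.6 to 63.4 in males. Smad6, an inhibitory Smad, had 5.63, 4.48 and 6.37 in females and 3.57, 2.94 and 5.46 in males.

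In the activin branch, whose receptors also act through Smad2 and Smad3, 4 of 8 tested genes had a log2 fold change below 0 and 4 above, and 0 were called by edgeR, with 1 in each direction at an unadjusted p under 0.05. Inhba, the activin A subunit, had 5.68, 6.17 and 4.86 CPM in females and 9.38, 11.6 and 10.3 in males, without overlap. It differed by 0.91 on the log2 scale with a standard error of 0.189 (adjusted p = 0.119 by edgeR and 0.00141 by DESeq2). Gdf11, a related ligand, had 19.1, 21.9 and 17.1 CPM in females and 13.3, 11.9 and 16.3 in males (log2 fold change -0.49, adjusted p = 0.372 by edgeR). Inhbb had 0.549 to 3.09 in females and 0.325 to 1.86 in males, Acvr1b, a type I receptor, between 18.3 and 21.9 and between 17.5 and 24.8, and Fstl3, an activin-binding protein, between 6.14 and 10.1 and between 8.06 and 9.04.

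Of 19 known TGF-beta targets, 10 had a log2 fold change below 0 and 9 above, with a median of -0.050, and 0 were called by edgeR. At an unadjusted p under 0.05, Tagln and Bgn were lower in males and Tgfbi, Junb and Acta2, the last named after its values were seen, were higher. Tagln, an actin-binding protein of smooth muscle, had 5.69, 6.64 and 6.43 CPM in females and 1.50, 1.20 and 3.20 in males, without overlap. It differed by -1.67 on the log2 scale with a standard error of 0.357 (adjusted p = 0.132 by edgeR and 0.000265 by DESeq2), and edgeR's adjusted p was 0.0197 without male replicate 3. Tgfbi, a matrix protein named for its induction by TGF-beta, had 93.1, 104 and 106 CPM in females and 119, 123 and 117 in males (log2 fold change 0.25, standard error 0.109, adjusted p = 0.490 by edgeR).

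Junb, a transcription factor of the AP-1 family, had 68.9, 74.4 and 62.0 CPM in females and 81.0, 146 and 90.8 in males, male replicate 2 standing highest (log2 fold change 0.63, standard error 0.200). For Junb the adjusted p by edgeR was 0.336, and 0.0462 with the replicate number as a block. With each library left out, its fold change lay between 0.33 and 0.79. Bgn, the matrix proteoglycan biglycan, had 203, 105 and 204 CPM in females and 121, 81.6 and 134 in males. Col1a2, a chain of type I collagen, had 247, 137 and 234 in females and 192, 119 and 188 in males. In both matrix genes replicate 2 was again the lowest library of each sex, and the sexes overlapped.

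**Figure D5:**
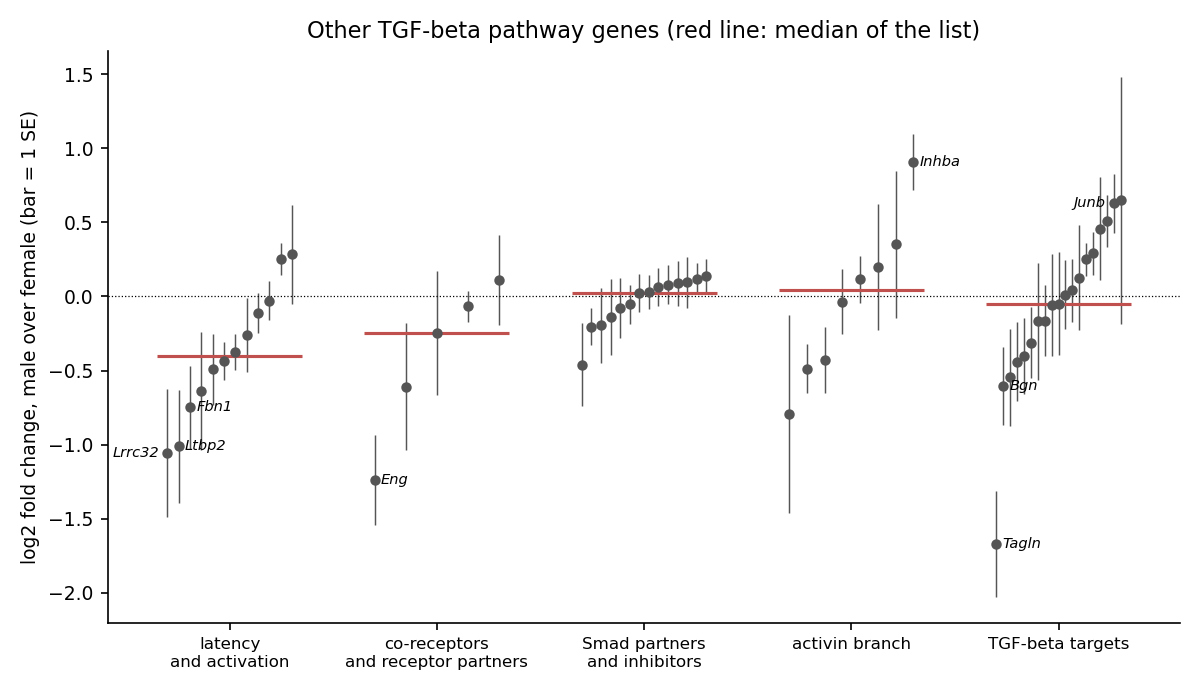
Log2 fold change of males over females from edgeR for the 58 other pathway genes tested, by list (points, with 1 standard error as bars) and the median of each list in red. The list of latency and activation has the lowest median, -0.40, and Tagln (-1.67), Eng (-1.24) and Inhba (0.91) lie apart within their lists, although none was called by edgeR.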

How the data were processed

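RNA of purified BECs from 12-weeks mice was sequenced in 6 libraries. The authors deposited whole-number counts per Ensembl gene, not normalised, in 1 column per library. The paper names GRCm39, STAR and featureCounts, whereas the submitters' processing notes name TopHat2 2.0.11, featureCounts and the builds mm9 and NCBIM37. The highest identifier number of the table, 93789, belongs to an older annotation than GRCm39, so exon lengths and overlaps taken here from GENCODE M39 on GRCm39 may differ from those counted. The annotation release and use of strand were not given in the sources used here. GENCODE M39 matched 31073 of 37991 identifiers, and the rest stayed in the test.

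Males were compared with females with edgeR 4.0.16 in R 4.3.3 (TMM, default filter by sex, robust quasi-likelihood fit without a block, Benjamini-Hochberg adjustment over 19480 genes). A standard error was taken as the size of the log2 value over the root of edgeR's F. DESeq2 1.42.0 was an alternative, beside other scalings and filters, the replicate number as a block, genes over 1% of a library left out, and each library left out. The genes and lists were chosen with earlier results of these data known. From each pathway list the text names genes called with or without the block, the 3 with most CPM and the 2 with the largest fold change from 1 CPM upwards. CPM relative to summed markers were added after seeing the data. The fits were tested on simulated data, where edgeR's main fit recovered 65% of 2-fold changes and DESeq2's test 75%. A gene that was not called is thus not shown to be equal in the sexes.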

Additional observations from a re-analysis of the deposited data

How the results depend on the processing

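The number of genes called between the sexes was 8 with TMM, 14 with total counts alone, 98 with no filter on low counts and 359 in DESeq2's Wald test, and between 5 and 96 with each library left out (5 without female replicate 2, 96 without male replicate 3). The number of the 10 TGF-beta genes called was 1 in all settings other than the block, where it was 2, and without female replicate 2, where it was 0, so the range with each library left out was 0 to 1. As these 10 genes were chosen with their fold changes known, this number is a description and lends the calls no support. Of the other pathway genes, 1 was called with no filter, 3 in DESeq2's test, and 0 to 1 with each library left out (Tagln, without male replicate 3). The causes were not tested. Of 130 log2 fold changes of the 10 genes under these alternatives, 129 moved by less than the gene's own SD within a sex. Ltbp1 and Smad3 took either sign. This SD was largest for Tgfbr3, 0.660, so its range of -1.19 to -0.52 counts as unmoved. Values relative to summed markers are not among the 130, and most of them moved by more than this SD.

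Same-numbered libraries of the sexes deviated together with correlations of 0.248, 0.0613 and 0.361 across genes, each the highest of its female library. Male replicate 2 correlated better with female replicate 1 (0.162) than with female replicate 2. The main fit did not take the numbers to pair the samples, and a block by number changed the calls. A fit that held the replicate block called 428 genes, among them Tgfb3 and Tgfbr3, and 8 of the other pathway genes: Bgn, Eng, Fbn1, Lrrc32, Ltbp2 and Tagln lower in males and Inhba and Junb higher. With this block edgeR's adjusted p was 0.00156 for Ltbp2, 0.00407 for Fbn1, 0.0241 for Bgn, 0.0462 for Junb and 0.0492 for Lrrc32. Across all settings the adjusted p lay between 0.000296 and 0.565 for Eng, between 0.00141 and 0.567 for Inhba and between 0.000265 and 0.509 for Tagln. Depth limits Tgfb2, with 18 counts in male replicate 2, and the 3 genes of the pathway that failed the filter.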
